A study of Mus musculus with 24 samples.

Results

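Collagens and laminins are the large secreted chains from which basement membranes and connective tissue are built. The genes described here are those whose symbol names a collagen alpha chain or a laminin alpha, beta or gamma chain and whose mean over the 24 libraries was at least 3 estimated counts. Of the 37620 genes in the table, 54 had such a symbol and 40 reached that mean, 32 of 43 collagens and 8 of 11 laminins. No difference between groups entered the choice. Just inside the limit lay Col4a5 with a mean of 3.25 and Col5a3 with 3.33 estimated counts, and just outside it lay Col25a1 with 2.67 and Col12a1 with 2.5. Of the 40 genes, 36 also passed the filter on low counts that the tests used, 28 collagens and all 8 laminins, while Col4a5, Col4a6, Col5a3 and Col23a1 did not.

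Polyadenylated RNA was sequenced from crypts isolated from 5 to 10 cm of jejunum of 24 mice, 3 for each of 4 genotypes on each of 2 days. The mice were 5 to 10 weeks old, and all groups, Control included, come under the one tamoxifen protocol that the labels give, 56 mg/kg into the peritoneum on 3 days in a row. Day 1 (d1) and day 2 (d2) are 24 h and 48 h after induction. The genotypes are Control, NlecKO (conditional knockout of Nle1, called Notchless, a factor that large ribosomal subunits need to mature), ApccKO (conditional knockout of Apc, which holds Wnt signalling through beta-catenin in check) and ApccKO;NlecKO, called the double knockout below. The sources used here do not give the Cre driver, the cells it acts in or the floxed exons.

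Laminins are trimers of 1 alpha, 1 beta and 1 gamma chain that polymerise on the cell surface and start a basement membrane. A separate network of type IV collagen is then tied to them by nidogens and perlecan. In the intestine the epithelium makes much of the laminin on which it stands, in particular the chains alpha 5 and alpha 3, while fibroblasts and muscle below the crypts make most of the type IV, type VI and fibrillar collagens. Fibril-associated collagens decorate fibrils, collagen VII anchors basement membrane to the fibrils, collagen XVII spans the membrane at hemidesmosomes, and collagens XV and XVIII (multiplexins) carry glycosaminoglycan chains at the basement membrane.

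The estimated counts of a library summed to between 17.86 and 26.47 M (mega), the median being 19.82 M. A level of 1 CPM, which is 1 count per M, therefore rests on about 17.86 to 26.47 counts per library. Nle1 stood at 20.1 to 27.9 CPM in Control, 34.2 to 39.9 in ApccKO, 4.81 to 7.30 in NlecKO and 7.79 to 12.3 in the double knockout. Apc RNA stood at 112 to 158 CPM over all 24 libraries, which checks nothing about the deletion, since deleting exons need not lower the count of a gene. The epithelial genes Epcam, Cdh1 and Krt8 averaged 1040, 1092 and 3072 CPM, whereas the fibroblast gene Lum was at 0 in 13 libraries, the endothelial gene Emcn in 15 and the glial gene Sox10 in 19. The sample codes in the labels place the Apc-lost libraries next to each other, between the Apc-intact libraries of d1 and those of d2. Whether the codes mark a batch is not stated. Anything that neighbouring codes shared in handling cannot be told apart from Apc loss. An earlier analysis of these data set 3 libraries apart, d1 ApccKO replicates 2 and 3 and d1 double knockout replicate 3. In these 3 the summed enterocyte markers stood at 8524, 6203 and 13318 CPM, against 2576 to 5475 in the other Apc-lost libraries of d1. Calls that ended without them are given beside the results.

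Laminin chains were the more abundant family. In the deposited TPM values, which take gene length into account, the means over all libraries included 16.0 for Lamb3, 9.32 for Lama5, 7.54 for Lamc1, 6.88 for Lamb1, 2.42 for Lama3 and 2.15 for Lamb2. Among the collagens Col16a1 came first at 9.53 TPM, a mean set by the Apc-lost groups, followed by Col20a1 at 2.66, Col18a1 at 1.77, Col11a2 at 1.69, Col9a3 at 1.68 and Col3a1 at 1.12. Together the collagens took 0.00329% to 0.0154% and the laminins 0.00937% to 0.0741% of the counts of a library. Of the 32 collagens, 15 had their highest group mean in NlecKO (8 on d1 and 7 on d2) and 8 in d2 ApccKO, whereas 5 of 8 laminins were highest in the d2 double knockout and the other 3 in d2 ApccKO.

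**Figure D1:**
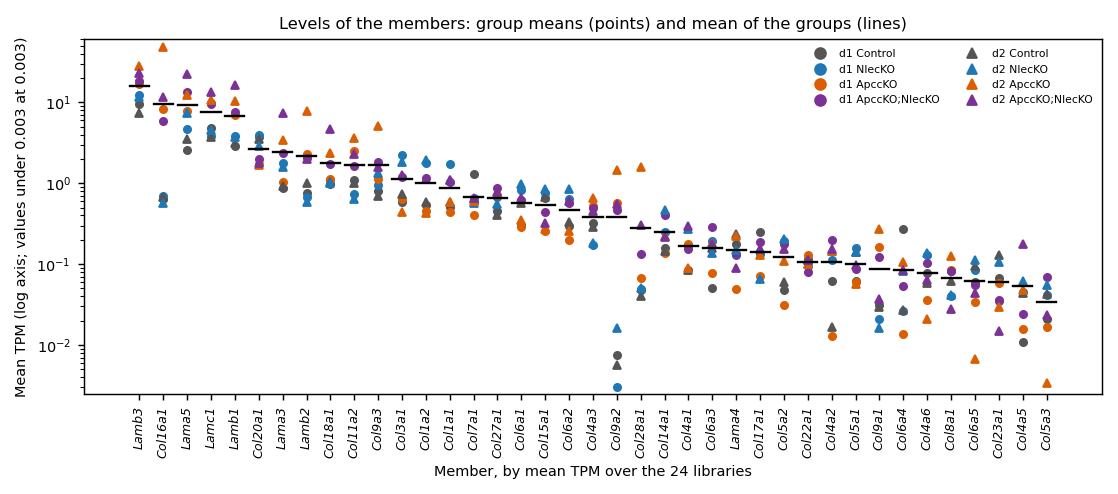
Mean deposited TPM (log axis) of each gene reported in each of the 8 groups (circles for day 1, triangles for day 2, coloured by genotype), ordered by the mean over the 24 libraries (black lines). The laminin Lamb3 stands at 16.0 TPM, and Col16a1, the collagen with the highest mean (9.53), has the Apc-lost groups far above the Apc-intact ones.

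Apc loss raised most laminin chains. With Nle1 present, 6 of 8 were called higher on d1 and 7 of 8 on d2, where 24.7% and 29.2% of all 16552 genes tested were called higher (49.7% and 58.7% in either direction, at an adjusted p under 0.05). With Nle1 lost the counts were again 6 and 7 of 8, beside 28.2% and 25.6% of all genes called higher (52.6% and 47.8% in either direction). The median log2 difference of the 8 chains was 1.06 on d1 and 1.90 on d2 with Nle1 present, and 1.23 and 1.58 with Nle1 lost, beside medians between -0.01 and 0.05 for all genes. The chains called on both days were the same 6 in each case, all higher, among them Lama5, Lamb1, Lamb2, Lamb3 and Lamc1, where 21.3% of all genes were called higher on both days with Nle1 present and 19.8% with Nle1 lost. Each of these calls held when any one library was left out. In crypts as a whole, a change in the share of cells of a type and a change in RNA per cell cannot be told apart: the enterocyte markers fell with Apc loss (8 of 10 on d1 and 10 of 10 on d2 with Nle1 present), their sum going from a mean of 19728 to 5768 CPM on d1 and from 20202 to 2291 on d2, and 6 of 8 immune markers fell on each day. The part of these shifts in the results was not tested.

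Among the alpha chains, only Lama5, the chain of the laminins that line most epithelia, was called higher with Apc loss on both days. On d1 Lama5 stood at 19.2, 28.5 and 23.3 CPM in Control, 31.9, 47.1 and 56.6 in NlecKO, 86.8, 45.0 and 62.3 in ApccKO and 105, 126 and 141 in the double knockout. By d2 Lama5 had reached 17.0, 27.6 and 18.6 CPM in Control, 45.6, 74.0 and 107 in NlecKO, 108, 85.1 and 117 in ApccKO and 212, 203 and 216 in the double knockout. Each knockout group lay above Control on both days, and the 3 d2 double knockout libraries, between 203 and 216 CPM, lay above every other library. Apc loss raised Lama5 on d1 (log2 difference 1.45, SE 0.29, adjusted p = 6.1e-04) and on d2 (log2 difference 2.28, SE 0.30, adjusted p = 4.5e-06) with Nle1 present, and by 1.45 and 1.48 on the log2 scale with Nle1 lost.

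Lama3, an alpha chain of epithelial laminins, was more variable. Its values on d1 were 8.91, 5.74 and 2.41 CPM in Control, 16.4, 7.89 and 10.8 in NlecKO, 4.50, 6.74 and 4.84 in ApccKO and 19.2, 4.50 and 11.8 in the double knockout. The d2 values of Lama3 were 8.79, 2.74 and 5.78 CPM in Control, 11, 10.5 and 8.92 in NlecKO, 9.89, 18.3 and 14.0 in ApccKO and 34.9, 29.0 and 41.3 in the double knockout. On d1 the groups overlapped widely and no comparison called it, whereas on d2 Apc loss raised it with Nle1 present (log2 difference 1.29, SE 0.48, adjusted p = 0.029) and with Nle1 lost (log2 difference 1.78, SE 0.48, adjusted p = 0.0051). The first of these calls ended without any one of 4 libraries, with an adjusted p of up to 0.13 without d2 Control replicate 2, and the second held throughout. Lama4, an alpha chain best known from vessels and muscle, stood between 0.0963 and 1.13 CPM and was called in none of the knockout comparisons.

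All 3 beta chains rose with Apc loss. Lamb3, a beta chain of epithelial laminins, stood on d1 at 38.1, 32.5 and 24.3 CPM in Control, 47.1, 41.1 and 44.7 in NlecKO, 54.6, 49.8 and 47.7 in ApccKO and 66.1, 54.4 and 57.0 in the double knockout. On d2 Lamb3 stood at 24.7, 23.3 and 25.3 CPM in Control, 45.2, 37.2 and 41.4 in NlecKO, 72.5, 83.8 and 88.0 in ApccKO and 83.1, 70.0 and 74.3 in the double knockout. The d2 values fall into 3 levels that do not overlap, Control, then NlecKO, then both Apc-lost groups together. With Nle1 present Apc loss raised Lamb3 by 0.68 (SE 0.13, adjusted p = 2.2e-04) on d1 and 1.73 (SE 0.13, adjusted p = 2.1e-09) on d2 on the log2 scale, and with Nle1 lost by 0.42 (SE 0.12, adjusted p = 0.0083) and 0.88 (SE 0.12, adjusted p = 1.6e-05).

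Lamb2, the beta chain of laminins found at synapses, muscle and many epithelia, was the chain that most set d2 ApccKO apart. On d1 it stood at 3.39, 3.56 and 3.49 CPM in Control, 2.78, 3.65 and 3.66 in NlecKO, 11.4, 6.93 and 9.99 in ApccKO and 7.97, 11.1 and 7.95 in the double knockout. The d2 libraries gave Lamb2 values of 3.61, 5.90 and 4.34 CPM in Control, 3.96, 2.74 and 2.07 in NlecKO, 31.4, 29.2 and 34.0 in ApccKO and 10.0, 8.96 and 8.21 in the double knockout. The 3 d2 ApccKO libraries, at 29.2 to 34.0 CPM, lay far above all others, and the double knockout stayed near its d1 level. The log2 difference with Apc loss was 1.42 (SE 0.22, adjusted p = 4.2e-05) on d1 and 2.74 (SE 0.22, adjusted p = 5.9e-09) on d2 with Nle1 present, and 1.62 (SE 0.22, adjusted p = 1.0e-05) on d2 with Nle1 lost.

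Lamb1 and Lamc1 pair with Lama5 in laminin-511, the main laminin under intestinal epithelium. Lamb1 on d1 stood at 8.69, 14.6 and 12.3 CPM in Control, 8.52, 15.1 and 14.9 in NlecKO, 35.8, 19.4 and 24.2 in ApccKO and 25.8, 33.8 and 31 in the double knockout. On d2 Lamb1 stood at 10.8, 9.24 and 6.43 CPM in Control, 17.8, 13.9 and 17.5 in NlecKO, 44.6, 40.8 and 40.7 in ApccKO and 75.7, 60.4 and 65.4 in the double knockout. Both Apc-lost groups lay above both Apc-intact groups on each day, and the double knockout lay highest on d2. With Nle1 present Lamb1 rose with Apc loss by 1.15 (SE 0.24, adjusted p = 6.5e-04) on d1 and 2.24 (SE 0.24, adjusted p = 3.9e-07) on d2, and with Nle1 lost by 2.03 (SE 0.24, adjusted p = 2.5e-06) on d2.

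Lamc1, the gamma chain that most laminins share, stood on d1 at 24.4, 27.3 and 29.4 CPM in Control, 20.1, 26.9 and 25.9 in NlecKO, 53.0, 50.3 and 55.0 in ApccKO and 56.6, 53.6 and 61.1 in the double knockout. On d2 Lamc1 stood at 18.4, 27.2 and 21.1 CPM in Control, 25.0, 24.7 and 35.2 in NlecKO, 56.2, 60.8 and 55.0 in ApccKO and 68.8, 91.8 and 85.9 in the double knockout. No Apc-lost library fell below 50.3 CPM and no Apc-intact library rose above 35.2. With Nle1 present the log2 difference with Apc loss was 0.96 (SE 0.15, adjusted p = 4.0e-05) on d1 and 1.36 (SE 0.15, adjusted p = 3.1e-07) on d2, and with Nle1 lost it was 1.23 (SE 0.15, adjusted p = 3.1e-06) and 1.53 (SE 0.15, adjusted p = 2.2e-07).

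**Figure D2:**
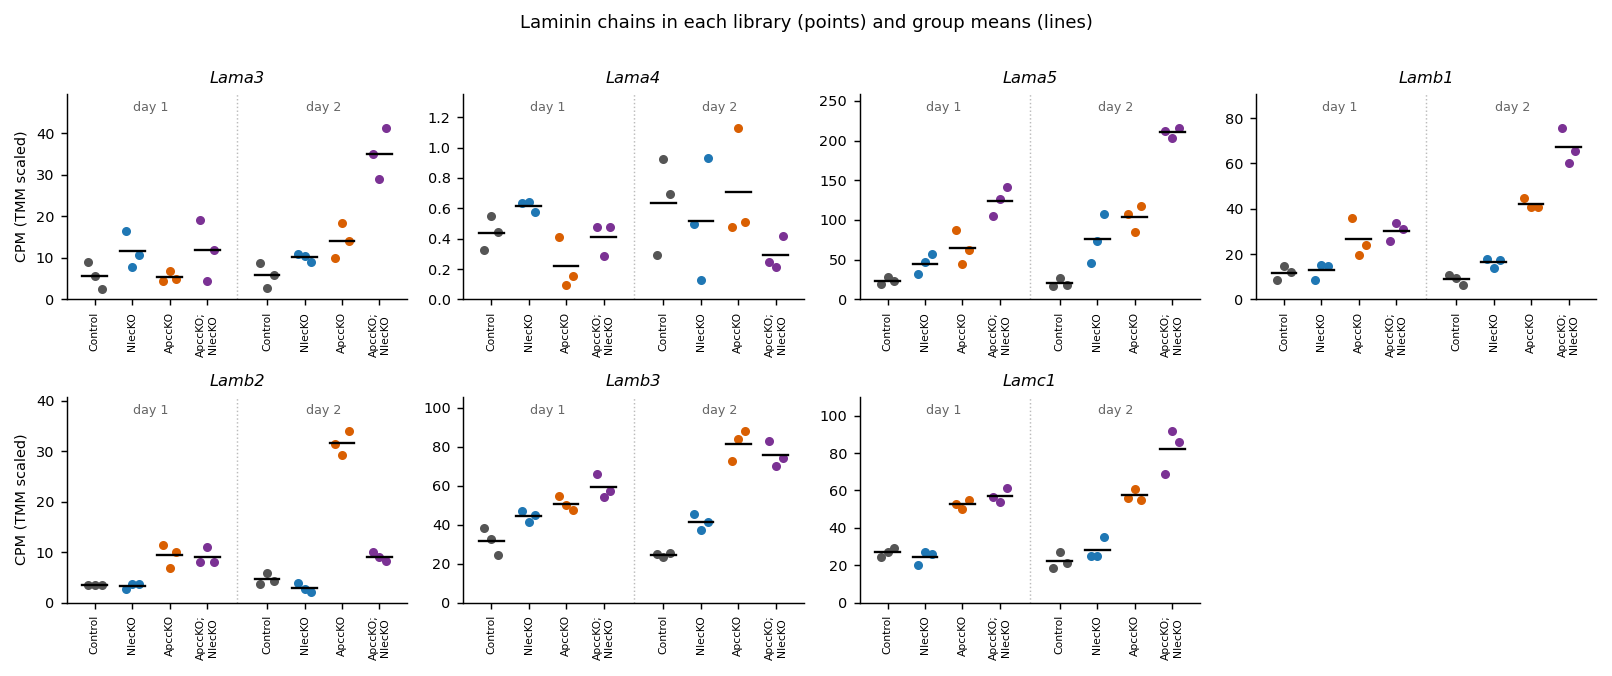
Laminin chains in CPM (linear axes from 0), with 1 point per library and a line at each group mean, day 1 left and day 2 right in each panel. Lama5 is highest in the day 2 double knockout (203 to 216 CPM), while Lamb2 is highest in day 2 ApccKO (29.2 to 34.0 CPM).

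In crypts with intact Apc, edgeR called 1 laminin higher with Nle1 loss on d1 and 4 on d2, and DESeq2 called 3 and 4; whether the effect differed between the days was not tested. On d1, 1 of 8 chains was called, against 2.48% of all genes, and it was Lamb3 (log2 difference 0.49, SE 0.13, adjusted p = 0.045); leaving out any one of 17 libraries ended that call, with an adjusted p of up to 0.29 without d1 Control replicate 3, and leaving out the 3 libraries set apart gave 0.066. On d2, 4 chains were higher and 1 lower, beside 7.33% and 8.26% of all genes (15.6% in either direction). The chains that rose included Lama5 (log2 difference 1.83, SE 0.30, adjusted p = 5.1e-04), Lamb3 (log2 difference 0.75, SE 0.13, adjusted p = 5.2e-04) and Lamb1 (log2 difference 0.89, SE 0.24, adjusted p = 0.017). Of these, Lama5 and Lamb3 held without any one library. The call on Lamb1 ended without any one of 2 libraries, at adjusted p up to 0.084. Lamb2 fell by 0.67 (SE 0.22, adjusted p = 0.045), with overlapping groups, and 14 single libraries ended that call. The medians over the 8 chains were 0.45 on d1 and 0.79 on d2, against 0.00 for all genes on both days.

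In crypts without Apc, Nle1 loss raised 2 of 8 laminins on d1, where 5.87% of all genes were called higher and 4.77% lower (10.6% in either direction). Lama5 was among them (log2 difference 0.94, SE 0.28, adjusted p = 0.043), and without the 3 libraries set apart its log2 difference was 0.40 with an adjusted p of 0.76. On d2 it raised 5 and lowered 1, beside 19.5% of all genes higher and 15.4% lower (34.9% in either direction). Lama5 (log2 difference 1.03, SE 0.28, adjusted p = 0.009) and Lamc1 (log2 difference 0.52, SE 0.15, adjusted p = 0.0088) rose in calls that no single library ended. Lamb1 (log2 difference 0.68, SE 0.23, adjusted p = 0.027) and Lama3 (log2 difference 1.31, SE 0.47, adjusted p = 0.036) rose in calls that any one of 5 and of 4 libraries ended, and that on Lama3 had an adjusted p of 0.058 without the 3 libraries set apart. Lamb2 fell from 29.2 to 34.0 CPM in ApccKO to 8.21 to 10.0 in the double knockout (log2 difference -1.79, SE 0.21, adjusted p = 3.2e-06).

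Whether the effect of Nle1 loss differed between Apc-lost and Apc-intact crypts was tested by the interaction of both losses. On d1 edgeR called 0 of 8 laminins and 0 of 28 collagens, where it called 0.0121% of all genes. At an unadjusted p under 0.05 there were 0 laminins and 1 collagen, and DESeq2 called 0 of either. On d2, 2 laminins had a lower effect of Nle1 loss in Apc-lost crypts and 2 collagens a higher one, beside 1.95% and 3.29% of all genes (5.24% in either direction). They were Lamb3 (log2 difference -0.86, SE 0.18, adjusted p = 0.0078), Lamb2 (log2 difference -1.11, SE 0.31, adjusted p = 0.042), Col18a1 (log2 difference 1.26, SE 0.35, adjusted p = 0.042) and Col7a1 (log2 difference 1.02, SE 0.30, adjusted p = 0.049). For Lamb3 the d2 log2 difference with Nle1 loss was 0.75 in Apc-intact and -0.10 in Apc-lost crypts, and for Lamb2 it was -0.67 and -1.79. The call on Lamb3 held without any one library, whereas those on Lamb2, Col18a1 and Col7a1 ended without any one of 14, 13 and 19 libraries, with adjusted p of at most 0.13.

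**Figure D3:**
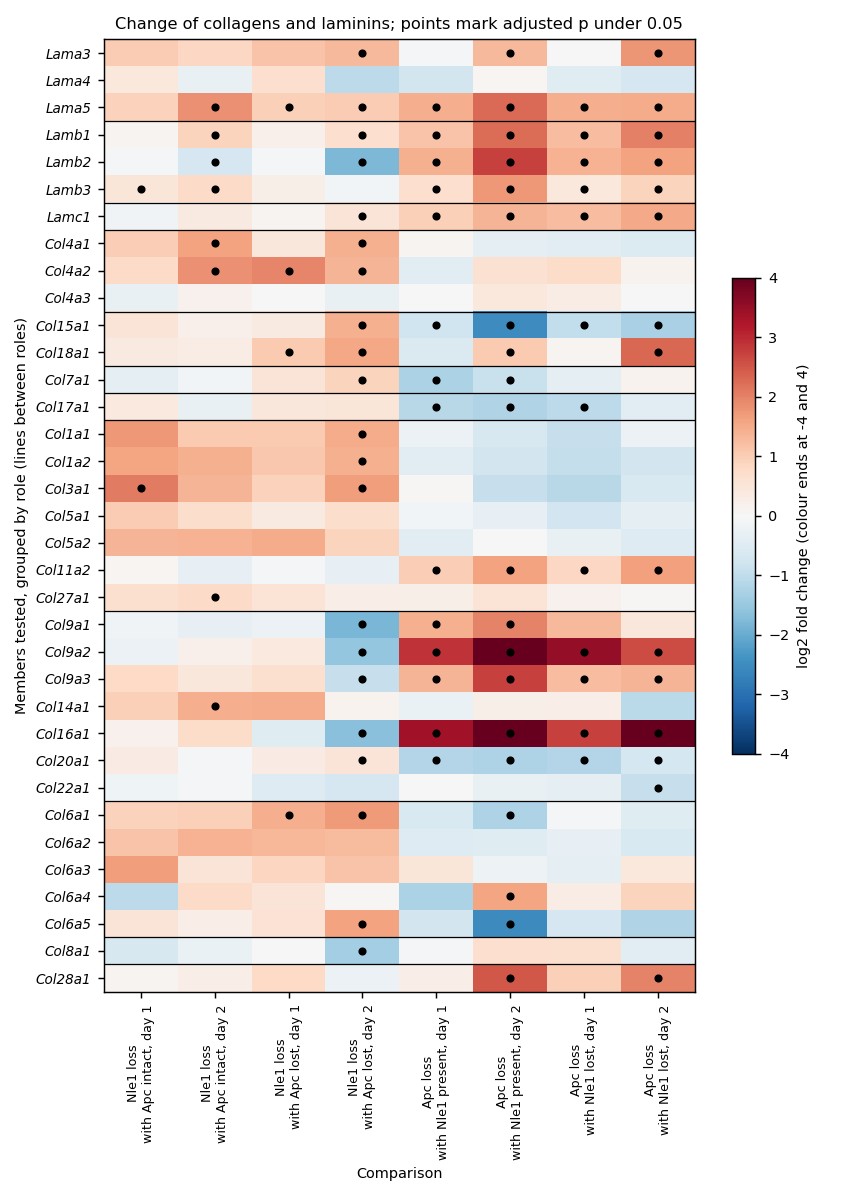
Log2 difference of each tested gene that is reported (rows) in the 4 comparisons of Apc loss and the 4 of Nle1 loss (columns), red for higher and blue for lower, with a point where the adjusted p from edgeR was under 0.05. Lama5, Lamb1, Lamb2, Lamb3 and Lamc1 are called higher in all 4 Apc columns, while collagens are called in both directions.

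Collagens, unlike laminins, went both ways with Apc loss. With Nle1 present, 5 of 28 tested were called higher and 4 lower on d1, where 49.7% of all genes were called, and 8 higher and 6 lower on d2, where 58.7% were. With Nle1 lost the counts were 4 and 3 on d1 (52.6% of all genes) and 6 and 3 on d2 (47.8%). The shares of the collagens called, 9 and 14 of 28 and then 7 and 9 of 28, were thus no higher than those of all genes. Their medians lay between -0.29 and -0.12. With Nle1 present 9 collagens were called on both days in the same direction, beside 43.1% of all genes, with Col9a1, Col9a2, Col9a3, Col11a2 and Col16a1 higher and Col7a1, Col15a1, Col17a1 and Col20a1 lower. Of these, 6 were so with Nle1 lost too, where 38.0% of all genes were: Col9a2, Col9a3, Col11a2, Col16a1, Col15a1 and Col20a1.

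The fibril-associated collagens held the largest rises. Col16a1, a collagen found near fibrils and basement membranes of many tissues, stood on d1 at 1.20, 1.15 and 1.33 CPM in Control, 1.28, 1.43 and 1.46 in NlecKO, 28.4, 8.33 and 3.96 in ApccKO and 20.2, 6.08 and 2.72 in the double knockout. On d2 Col16a1 stood at 0.524, 1.22 and 0.321 CPM in Control, 0.805, 0.830 and 2.15 in NlecKO, 72.7, 58.7 and 94.4 in ApccKO and 17.4, 27.5 and 25.8 in the double knockout. Every Apc-lost library lay above every Apc-intact one, yet on d1 the Apc-lost libraries ran from 2.72 to 28.4 CPM, with replicate 1 of each genotype on top and the 3 libraries set apart among the lower 4. The highest group mean, in d2 ApccKO, was 109 times the lowest, in d2 Control. Apc loss raised Col16a1 with Nle1 present on d1 (log2 difference 3.37, SE 0.73, adjusted p = 0.0012) and d2 (log2 difference 6.50, SE 0.81, adjusted p = 3.3e-06), and with Nle1 lost on d1 (log2 difference 2.72, SE 0.72, adjusted p = 0.0046) and d2 (log2 difference 4.09, SE 0.73, adjusted p = 2.4e-04). The third of these calls ended without d1 double knockout replicate 1 (adjusted p = 0.059). Within Apc-lost crypts Nle1 loss lowered it on d2 (log2 difference -1.67, SE 0.61, adjusted p = 0.041), a call that any one of 9 libraries ended.

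The 3 chains of collagen IX, a fibril-associated collagen best known from cartilage, moved together at much lower counts. Col9a2 on d1 stood at 0.00, 0.00 and 0.0492 CPM in Control, 0.00, 0.00 and 0.00 in NlecKO, 1.14, 0.481 and 0.618 in ApccKO and 1.75, 0.766 and 0.480 in the double knockout. On d2 Col9a2 stood at 0.00, 0.0371 and 0.00 CPM in Control, 0.124, 0.00 and 0.00 in NlecKO, 2.43, 1.89 and 2.33 in ApccKO and 0.707, 0.858 and 0.520 in the double knockout. It was at or next to 0 in all Apc-intact libraries and at 0.480 CPM or more in all Apc-lost ones. The 10 libraries in which it reached the level of the low-count filter were all Apc-lost, so it was tested only through them. With Nle1 present Apc loss gave 47 counts against 1 on d1, a ratio of 43.0 with an exact 95% interval of 7.35 to 1733 for counting error only (adjusted p = 3.0e-04), and 148 against 1 on d2, a ratio of 139 with an interval of 24.6 to 5540 (adjusted p = 2.2e-06). With Nle1 lost it gave 62 counts against 0 on d1, at least 6.27-fold higher against a floor of 3 counts per library, and 43 against 2 on d2, a ratio of 22.5 with an interval of 5.87 to 192.

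Col9a3 on d1 stood at 0.437, 0.656 and 0.787 CPM in Control, 1.45, 0.739 and 1.31 in NlecKO, 2.68, 1.20 and 1.39 in ApccKO and 3.89, 2.49 and 2.08 in the double knockout. On d2 Col9a3 stood at 0.640, 0.631 and 0.910 CPM in Control, 0.867, 1.29 and 0.892 in NlecKO, 5.85, 5.73 and 4.56 in ApccKO and 2.78, 2.84 and 2.75 in the double knockout. The d2 groups fall into the order of Apc-intact, double knockout and ApccKO, with no overlap between those 3 levels. Col9a3 rose with Apc loss by 1.36 (SE 0.32, adjusted p = 0.0016) on d1 and 2.74 (SE 0.31, adjusted p = 4.0e-07) on d2 with Nle1 present, and by 1.22 (SE 0.30, adjusted p = 0.002) and 1.37 (SE 0.30, adjusted p = 9.0e-04) with Nle1 lost. Its exons overlap those of Tcfl5 on the other strand by 234 bases, and 5.35% of its sequence words of 31 bases also occur in another gene, so some of its counts are uncertain. Col9a1 reached 0.496 to 0.564 CPM in d2 ApccKO against 0.0371 to 0.116 in d2 Control (log2 difference 1.97, SE 0.56, adjusted p = 0.0052). It reached the filter's level of 0.505 CPM (before TMM scaling) in 4 libraries, all of them Apc-lost. Col9a1 was thus tested only through groups in which it was high. Its call with Nle1 present on d1 (adjusted p = 0.046) ended without any one of 14 libraries, and it was not called with Nle1 lost. Nle1 loss in Apc-lost crypts lowered all 3 chains on d2, Col9a1 by 1.83, Col9a2 by 1.55 and Col9a3 by 0.92 on the log2 scale (adjusted p = 0.015, 0.012 and 0.014). The first 2 of these calls ended without any one of 2 libraries and of 1 library, at adjusted p up to 0.072 and 0.058.

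Promoter sequences are shown for Col9a1, Col9a2 and Col16a1 because these chains rose with Apc loss, and TCF and LEF factors, the DNA-binding partners of beta-catenin, are known to bind a short motif. The sequences run from 250 bases before to 50 bases after a start of the gene in RefSeq, build GRCm38.p6, on the plus strand, 5′ to 3′. They lie at chr1:24177360-24177659 for Col9a1, chr4:121039316-121039615 for Col9a2 and chr4:130047590-130047889 for Col16a1. Capitals mark a match to the motif, searched as CTTTGAT or CTTTGAA on both strands. It begins 186 bases before the start shown in Col9a1 and 178 bases before that in Col9a2. Col16a1 had no match in this window. Col9a1 has another RefSeq start, with its window at chr1:24194953-24195252, which held no match. In the GENCODE annotation Col9a2 starts further upstream, at 121039385, which puts the match inside the gene.
Col9a1: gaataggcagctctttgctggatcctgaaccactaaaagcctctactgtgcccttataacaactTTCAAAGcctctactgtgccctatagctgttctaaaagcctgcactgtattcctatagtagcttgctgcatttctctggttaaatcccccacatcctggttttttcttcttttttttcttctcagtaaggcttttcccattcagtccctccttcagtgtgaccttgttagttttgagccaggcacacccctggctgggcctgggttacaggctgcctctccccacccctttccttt
Col9a2: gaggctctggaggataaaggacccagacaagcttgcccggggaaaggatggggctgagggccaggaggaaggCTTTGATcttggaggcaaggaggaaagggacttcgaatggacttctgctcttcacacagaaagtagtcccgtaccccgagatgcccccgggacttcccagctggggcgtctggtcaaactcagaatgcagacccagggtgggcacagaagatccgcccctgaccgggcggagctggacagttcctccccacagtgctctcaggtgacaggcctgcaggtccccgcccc
Col16a1: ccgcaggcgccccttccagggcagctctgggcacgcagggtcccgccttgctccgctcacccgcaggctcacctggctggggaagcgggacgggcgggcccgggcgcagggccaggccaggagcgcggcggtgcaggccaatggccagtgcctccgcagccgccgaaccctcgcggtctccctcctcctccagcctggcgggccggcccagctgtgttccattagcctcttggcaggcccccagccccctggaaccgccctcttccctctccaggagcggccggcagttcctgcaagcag
Promoters of 30 of the 40 genes were searched, and 4 of the 30 (13.3%) held the motif, Col6a2, Col9a1, Col9a2 and Col15a1. Among all 27025 genes with an entry the share was 9.88%. The shares may not rest on the same selection of genes. Col15a1 fell and Col6a2 was not called with Apc loss, so the match did not separate the collagens by direction. Col11a2, Col28a1, Lama5, Lamb1, Lamb2 and Lamb3 also rose with Apc loss, and their promoters held no match. The AP-1 motif TGACTCA, or TGAGTCA on the other strand, occurred in 1 of the 30, Col6a1, beside 5.95% of all genes. A match is a run of letters only, and nothing about binding was measured.

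Col11a2 and Col28a1 also rose. Col11a2, a fibrillar collagen chain best known from cartilage and the most abundant fibrillar member here per length, stood on d1 at 3.83, 2.90 and 3.89 CPM in Control, 3.02, 4.24 and 3.97 in NlecKO, 9.17, 5.30 and 6.90 in ApccKO and 7.25, 8.13 and 4.85 in the double knockout. On d2 Col11a2 stood at 2.62, 5.16 and 3.86 CPM in Control, 3.28, 3.07 and 2.88 in NlecKO, 13.5, 13.0 and 9.91 in ApccKO and 10.7, 10.1 and 8.47 in the double knockout. Apc-lost and Apc-intact libraries did not overlap on either day, the closest being 4.85 against 4.24 CPM on d1. The log2 difference with Apc loss was 0.99 (SE 0.24, adjusted p = 0.002) on d1 and 1.61 (SE 0.24, adjusted p = 9.7e-06) on d2 with Nle1 present, and 0.83 (SE 0.24, adjusted p = 0.0063) and 1.64 (SE 0.24, adjusted p = 2.2e-05) with Nle1 lost.

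Col28a1, a small collagen with von Willebrand factor domains, stood on d1 at 0.109, 0.164 and 0.197 CPM in Control, 0.116, 0.148 and 0.261 in NlecKO, 0.182, 0.385 and 0.0515 in ApccKO and 0.427, 0.239 and 0.640 in the double knockout. On d2 Col28a1 stood at 0.0582, 0.223 and 0.107 CPM in Control, 0.186, 0.166 and 0.203 in NlecKO, 0.867, 1.04 and 1.77 in ApccKO and 0.831, 1.13 and 1.09 in the double knockout. It was thus low in all 4 groups on d1 and about 1 CPM in both Apc-lost groups on d2. Only on d2 was it called with Apc loss, at 2.48 (SE 0.41, adjusted p = 3.2e-05) with Nle1 present and 1.97 (SE 0.40, adjusted p = 4.8e-04) with Nle1 lost. Col28a1 reached the level of the low-count filter in 7 libraries, all of them Apc-lost, so it too was tested only through these.

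Other collagens fell with Apc loss. Col20a1, a fibril-associated collagen and the most abundant collagen of Apc-intact crypts, stood on d1 at 12.4, 8.75 and 7.82 CPM in Control, 12.9, 12.9 and 10.8 in NlecKO, 3.54, 4.33 and 4.89 in ApccKO and 5.17, 4.59 and 6.40 in the double knockout. On d2 Col20a1 stood at 9.66, 9.87 and 8.84 CPM in Control, 9.53, 10.6 and 7.54 in NlecKO, 4.60, 3.61 and 3.58 in ApccKO and 6.03, 4.88 and 6.13 in the double knockout. Every Apc-lost library lay below every Apc-intact one. Col20a1 fell by 1.17 (SE 0.18, adjusted p = 5.0e-05) on d1 and by 1.25 (SE 0.18, adjusted p = 1.0e-05) on d2 with Nle1 present, and by 1.17 and 0.69 with Nle1 lost.

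Col7a1, the anchoring fibril collagen, stood on d1 at 3.83, 4.92 and 5.26 CPM in Control, 3.07, 3.65 and 3.97 in NlecKO, 2.27, 1.69 and 1.65 in ApccKO and 2.89, 2.82 and 2.40 in the double knockout. On d2 Col7a1 stood at 3.08, 4.93 and 3.53 CPM in Control, 3.28, 3.86 and 3.49 in NlecKO, 1.82, 2.75 and 1.63 in ApccKO and 4.53, 3.38 and 3.90 in the double knockout. ApccKO was the lowest group on both days, whereas the d2 double knockout overlapped Control and NlecKO. With Nle1 present Apc loss lowered Col7a1 by 1.28 (SE 0.22, adjusted p = 9.3e-05) on d1 and by 0.88 (SE 0.21, adjusted p = 0.0015) on d2, and Nle1 loss in Apc-lost crypts raised it on d2 (log2 difference 0.90, SE 0.21, adjusted p = 0.0026).

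Col15a1, a multiplexin, stood on d1 at 0.820, 0.930 and 1.23 CPM in Control, 2.09, 1.13 and 1.26 in NlecKO, 0.363, 0.433 and 0.824 in ApccKO and 0.616, 0.861 and 0.640 in the double knockout. On d2 Col15a1 stood at 1.69, 1.34 and 1.5 CPM in Control, 1.73, 1.91 and 1.54 in NlecKO, 0.217, 0.135 and 0.186 in ApccKO and 0.582, 0.536 and 0.831 in the double knockout. The d2 values form 3 levels, ApccKO lowest, the double knockout in between and both Apc-intact groups highest. Apc loss lowered Col15a1 on d2 by 2.53 (SE 0.30, adjusted p = 7.8e-07) with Nle1 present and by 1.29 (SE 0.28, adjusted p = 7.6e-04) with Nle1 lost, and Nle1 loss in Apc-lost crypts raised it (log2 difference 1.43, SE 0.30, adjusted p = 0.0011). The d1 fall with Nle1 present was a fall of 0.79 with overlapping groups, and any one of 3 libraries ended its call.

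Col17a1, the hemidesmosome collagen, was rare: its d1 values were 0.547, 0.164 and 0.541 CPM in Control, 0.348, 0.641 and 0.732 in NlecKO, 0.136, 0.241 and 0.0515 in ApccKO and 0.142, 0.239 and 0.320 in the double knockout. On d2 Col17a1 stood at 0.407, 0.556 and 0.321 CPM in Control, 0.186, 0.540 and 0.243 in NlecKO, 0.173, 0.0902 and 0.140 in ApccKO and 0.291, 0.215 and 0.156 in the double knockout. The Apc-lost values lay mostly below the Apc-intact ones, and it was called lower with Nle1 present on d1 and d2 (log2 difference -1.20, SE 0.41, adjusted p = 0.016) and with Nle1 lost on d1. Between 2 and 5 single libraries ended each of these calls, and without the 3 libraries set apart the first of them had an adjusted p of 0.16. Of the collagen VI chains, Col6a1 fell with Apc loss on d2 with Nle1 present by 1.24 (SE 0.43, adjusted p = 0.018), in overlapping groups and with an adjusted p of 0.21 without d2 Control replicate 2. Col6a5 fell there too, with 3 counts in the 3 ApccKO libraries against 49 in Control, a ratio of 0.0576 with an exact 95% interval of 0.0115 to 0.179 (adjusted p = 4.5e-04). In the same comparison 58.7% of all genes were called. Of the 12 stromal markers tested, 3 fell there, Thy1 by 2.53, Pdgfrb by 1.02 and Pecam1 by 0.79 on the log2 scale, and 2 rose, Acta2 by 2.47 and S100b by 1.51. Their part in these collagen values was not tested.

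**Figure D4:**
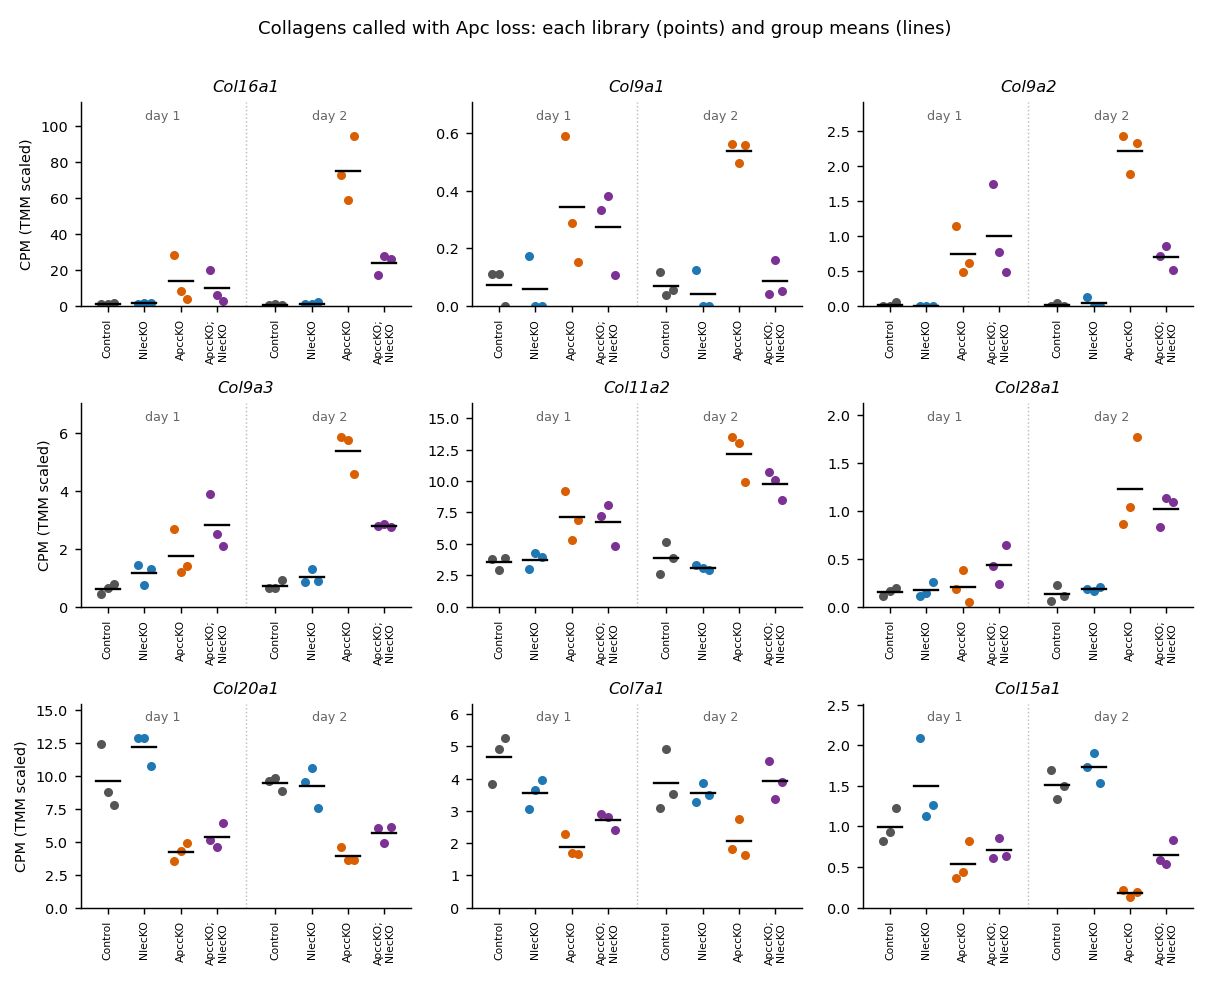
The 9 collagens Col16a1, Col9a1, Col9a2, Col9a3, Col11a2, Col28a1, Col20a1, Col7a1 and Col15a1 in CPM (linear axes from 0), with 1 point per library and a line at each group mean, day 1 left and day 2 right in each panel. On day 2 ApccKO is the highest group in the first 6 panels (Col16a1 at 58.7 to 94.4 CPM) and the lowest in the last 3 (Col15a1 at 0.135 to 0.217 CPM).

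Col18a1, the multiplexin whose end piece is endostatin, was the collagen that most marked the d2 double knockout. On d1 Col18a1 stood at 4.32, 4.16 and 1.82 CPM in Control, 3.60, 4.63 and 4.86 in NlecKO, 2.63, 2.21 and 1.90 in ApccKO and 4.65, 5.74 and 3.79 in the double knockout. On d2 Col18a1 stood at 3.43, 2.52 and 2.36 CPM in Control, 3.71, 3.49 and 3.04 in NlecKO, 5.07, 4.96 and 7.26 in ApccKO and 15.8, 16.4 and 19.2 in the double knockout. The 3 d2 double knockout libraries lay at 15.8 to 19.2 CPM, and the highest of the others stood at 7.26. Apc loss did not move its d1 level past the threshold (log2 differences of -0.58 and 0.11), but raised it on d2 with Nle1 present (log2 difference 1.04, SE 0.25, adjusted p = 0.0014) and with Nle1 lost (log2 difference 2.30, SE 0.25, adjusted p = 8.3e-07). Nle1 loss in Apc-lost crypts raised it on d2 (log2 difference 1.56, SE 0.24, adjusted p = 5.3e-05) and on d1 (log2 difference 1.04, SE 0.25, adjusted p = 0.013); the d1 call ended without d1 ApccKO replicate 3 (adjusted p = 0.065) and without the 3 libraries set apart (adjusted p = 0.38). With Apc intact Nle1 loss gave 0.35 and 0.29, neither past the threshold.

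Few collagens were called with Nle1 loss, except in Apc-lost crypts on d2. With Apc intact, 1 of 28 was called on d1 and 4 on d2, all of them higher, beside 0.870% and 7.33% of all genes called higher and 1.61% and 8.26% lower (2.48% and 15.6% in either direction), and the medians were 0.53 and 0.48 against 0.00 for all genes. With Apc lost, 3 were higher on d1, where 5.87% of all genes were called higher and 10.6% in either direction. On d2 11 were higher and 5 lower, beside 19.5% of all genes higher and 15.4% lower (34.9% in either direction). Except in that last comparison, the shares called in either direction were close to those of all genes. The 5 lower on d2 were the 3 collagen IX chains, Col16a1 and Col8a1. The medians were 0.54 on d1 and 0.60 on d2, against 0.02 and 0.05 for all genes. Without the 3 libraries set apart, 0 collagens were called with Apc lost on d1 and 0 with Apc intact on d1. Markers of other cells moved in the d2 comparison of Apc-lost crypts as well: 5 of 8 immune markers rose (median of the 8, 1.02), among them Lyz2 by 1.42, Cd3e by 0.94 and Ptprc by 1.09, and 2 of 10 enterocyte markers rose, Alpi by 2.47 and Sis by 1.68. The summed immune markers overlapped, at 175 to 299 CPM in ApccKO and 144 to 353 in the double knockout, and the part of these cells in the collagen differences was not tested.

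The fibrillar collagens Col1a1, Col1a2 and Col3a1, the main fibril chains of connective tissue, were highest in NlecKO. Col3a1 on d1 stood at 1.69, 3.17 and 2.80 CPM in Control, 14.3, 10.7 and 8.42 in NlecKO, 2.72, 3.61 and 1.54 in ApccKO and 2.70, 8.56 and 3.95 in the double knockout. On d2 Col3a1 stood at 2.62, 4.19 and 2.84 CPM in Control, 14.3, 3.32 and 8.27 in NlecKO, 2.52, 0.767 and 1.77 in ApccKO and 3.91, 3.86 and 8.89 in the double knockout. On d1 all NlecKO libraries lay above Control, but on d2 NlecKO replicate 2 lay within the Control range for Col3a1 and for Col1a2 (2.20) and below it for Col1a1 (1.74). The d1 rise of Col3a1 with Apc intact was called (log2 difference 2.08, SE 0.53, adjusted p = 0.044), and any one of 16 libraries ended that call, with an adjusted p of up to 0.21 without d1 Control replicate 3 and of 0.064 without the 3 libraries set apart. Col1a1 and Col1a2 gave 1.73 (adjusted p = 0.071) and 1.59 (adjusted p = 0.12) there. In Apc-lost crypts on d2 Nle1 loss raised Col3a1 (log2 difference 1.66, SE 0.54, adjusted p = 0.022), Col1a1 (log2 difference 1.48, SE 0.50, adjusted p = 0.028) and Col1a2 (log2 difference 1.42, SE 0.54, adjusted p = 0.049), and each call ended without d2 double knockout replicate 3, at adjusted p of 0.14, 0.16 and 0.24. The call on Col1a2 also ended without the 3 libraries set apart (adjusted p = 0.081).

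The summed level of these 3 genes was 5.08, 9.57 and 6.35 CPM in d1 Control against 30.7, 28.0 and 18.3 in d1 NlecKO. It was 7.04, 11.8 and 5.89 in d2 Control against 32.8, 7.26 and 23.0 in d2 NlecKO. The sum of 24 stromal markers (fibroblast, smooth muscle, endothelial and glial genes, without Fbln1, which alone averaged 147 CPM) was 17.5 to 18.4 CPM in d1 Control, 19.6 to 27.2 in d1 NlecKO, 9.68 to 11.9 in d1 ApccKO and 15.4 to 18.9 in the d1 double knockout. On d2 it was 18.1 to 24.9, 20.7 to 23.0, 13.7 to 17.1 and 20.0 to 22.6 in the same order. This sum was higher with Nle1 lost than with Nle1 present on d1 in both Apc states and on d2 in Apc-lost crypts. The fibrillar sum was so too on d1 with Apc intact and on d2 in Apc-lost crypts. On d1 in Apc-lost crypts the fibrillar sum overlapped, at 6.97 to 20.2 CPM in the double knockout against 4.84 to 7.08 in ApccKO. The part of the stromal sum in the collagen differences was not tested. With Fbln1 included the stromal sum went the other way in Apc-lost crypts on d2, 177 to 225 CPM in ApccKO against 79.1 to 132 in the double knockout. It then overlapped between these genotypes on d1, at 152 to 169 and 118 to 159, and with Apc intact it was 97.8 to 214 in Control against 192 to 251 in NlecKO on d1 and 87.7 to 184 against 208 to 231 on d2. Of all 25 stromal markers, 16 were at 0 in at least 1 library and 12 passed the filter. With Nle1 loss and Apc intact none of the 12 was called on d1, and on d2 S100b rose by 1.78 (adjusted p = 0.037) and Pecam1 by 1.03 (adjusted p = 0.0094). In Apc-lost crypts Dcn rose on d1 by 2.38 (adjusted p = 0.027). On d2 S100b rose there by 3.11 (adjusted p = 8.6e-05), from a mean of 0.359 to 3.86 CPM, and Fbln1 fell by 1.16 (adjusted p = 0.012). Of all genes, 2.48% and 15.6% were called on d1 and d2 with Apc intact, and 10.6% and 34.9% with Apc lost.

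Of the 5 type IV collagen chains 3 were tested, and Col4a1 and Col4a2 rose with Nle1 loss on d2, at low counts, while Col4a3 was not called. Col4a1 on d1 stood at 0.547, 0.328 and 0.492 CPM in Control, 1.28, 1.04 and 0.680 in NlecKO, 0.545, 0.530 and 0.412 in ApccKO and 0.616, 1.0 and 0.533 in the double knockout. On d2 Col4a1 stood at 0.582, 0.631 and 0.161 CPM in Control, 1.98, 1.20 and 1.70 in NlecKO, 0.390, 0.226 and 0.419 in ApccKO and 0.997, 0.805 and 1.46 in the double knockout. On d2 the Nle1-lost libraries lay above the Nle1-present ones, with 0.805 as the lowest and 0.631 as the highest value. Nle1 loss raised Col4a1 on d2 with Apc intact (log2 difference 1.60, SE 0.35, adjusted p = 0.0039) and with Apc lost (log2 difference 1.42, SE 0.35, adjusted p = 0.0039), and no single library ended either call.

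Col4a2 on d1 stood at 0.164, 0.0547 and 0.148 CPM in Control, 0.116, 0.394 and 0.314 in NlecKO, 0.0908, 0.0963 and 0.00 in ApccKO and 0.474, 0.526 and 0.587 in the double knockout. On d2 Col4a2 stood at 0.00, 0.148 and 0.107 CPM in Control, 0.805, 0.332 and 0.648 in NlecKO, 0.173, 0.135 and 0.279 in ApccKO and 0.540, 0.268 and 1.14 in the double knockout. The 6 libraries in which Col4a2 reached the level of the low-count filter were all Nle1-lost, so it was tested only through them. It was called higher on d2 with Apc intact (log2 difference 1.84, SE 0.49, adjusted p = 0.014) and with Apc lost (log2 difference 1.35, SE 0.47, adjusted p = 0.031, overlapping groups), and on d1 with Apc lost (log2 difference 1.96, SE 0.50, adjusted p = 0.016). Those calls ended without any one of 1, 3 and 2 libraries, at adjusted p up to 0.059, 0.24 and 0.07, and the d1 call had an adjusted p of 0.43 without the 3 libraries set apart. Col4a3, the type IV chain with the highest TPM here and a part of kidney and lung basement membranes, ranged from 0.290 to 1.13 CPM and was called in none of the 8 comparisons. Its values on d2 were 0.466, 0.482 and 0.857 CPM in Control, 0.371, 0.498 and 1.13 in NlecKO, 0.867, 0.857 and 0.791 in ApccKO and 0.499, 0.751 and 0.779 in the double knockout, and on d1 they were 0.492 to 0.640 in Control and 0.290 to 0.721 in the other groups. Some 5.65% of its exonic bases overlap a transcript on the other strand.

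Col4a1 and Col4a2, the chains of the network that most basement membranes contain, lie head to head on chromosome 8 and overlap at their starts. The stretch around both starts is shown because the chains rose together. The sequence is chr8:11312555-11312854 of GRCm38.p6, plus strand, 250 bases before to 50 after the RefSeq start of Col4a2. Capitals mark the 22 bases from the start of Col4a2 to that of Col4a1, which lie in both genes. Col4a1 is read from the other strand, so the bases before the capitals lie inside it.
Col4a2 and Col4a1: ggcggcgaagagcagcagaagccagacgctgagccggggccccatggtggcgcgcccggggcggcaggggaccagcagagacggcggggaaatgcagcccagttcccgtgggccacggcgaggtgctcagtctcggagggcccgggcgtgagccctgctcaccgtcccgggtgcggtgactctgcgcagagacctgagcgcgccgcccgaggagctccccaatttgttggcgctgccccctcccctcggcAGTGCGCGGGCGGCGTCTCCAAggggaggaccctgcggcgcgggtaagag
With 21 bases between the starts, the exons of both genes share 22 bases, so nearly all of their counts come from sequence that is not shared.

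Among the type VI collagens, which form beaded filaments around stromal cells, Col6a1 was the most abundant. It stood on d1 at 0.765, 1.37 and 0.787 CPM in Control, 2.15, 1.92 and 1.67 in NlecKO, 0.590, 0.337 and 0.875 in ApccKO and 1.37, 3.16 and 0.907 in the double knockout. On d2 Col6a1 stood at 1.22, 2.45 and 0.750 CPM in Control, 3.16, 2.49 and 3.44 in NlecKO, 0.824, 0.316 and 0.605 in ApccKO and 2.16, 1.77 and 2.44 in the double knockout. NlecKO lay above Control on both days, on d2 by 2.49 against 2.45 CPM at the closest, but with Apc intact Col6a1 was called on neither day. In Apc-lost crypts the double knockout lay above ApccKO. Nle1 loss raised Col6a1 in Apc-lost crypts on d1 (log2 difference 1.46, SE 0.43, adjusted p = 0.035) and d2 (log2 difference 1.71, SE 0.43, adjusted p = 0.0041), the latter in a call that no single library ended. The d1 call had an adjusted p of 0.30 without the 3 libraries set apart and of 0.21 without d1 double knockout replicate 2. Col6a2 went the same way at 1.13 to 1.40 on the log2 scale in the 4 Nle1 comparisons, none past the threshold, with adjusted p from 0.056 to 0.25.

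**Figure D5:**
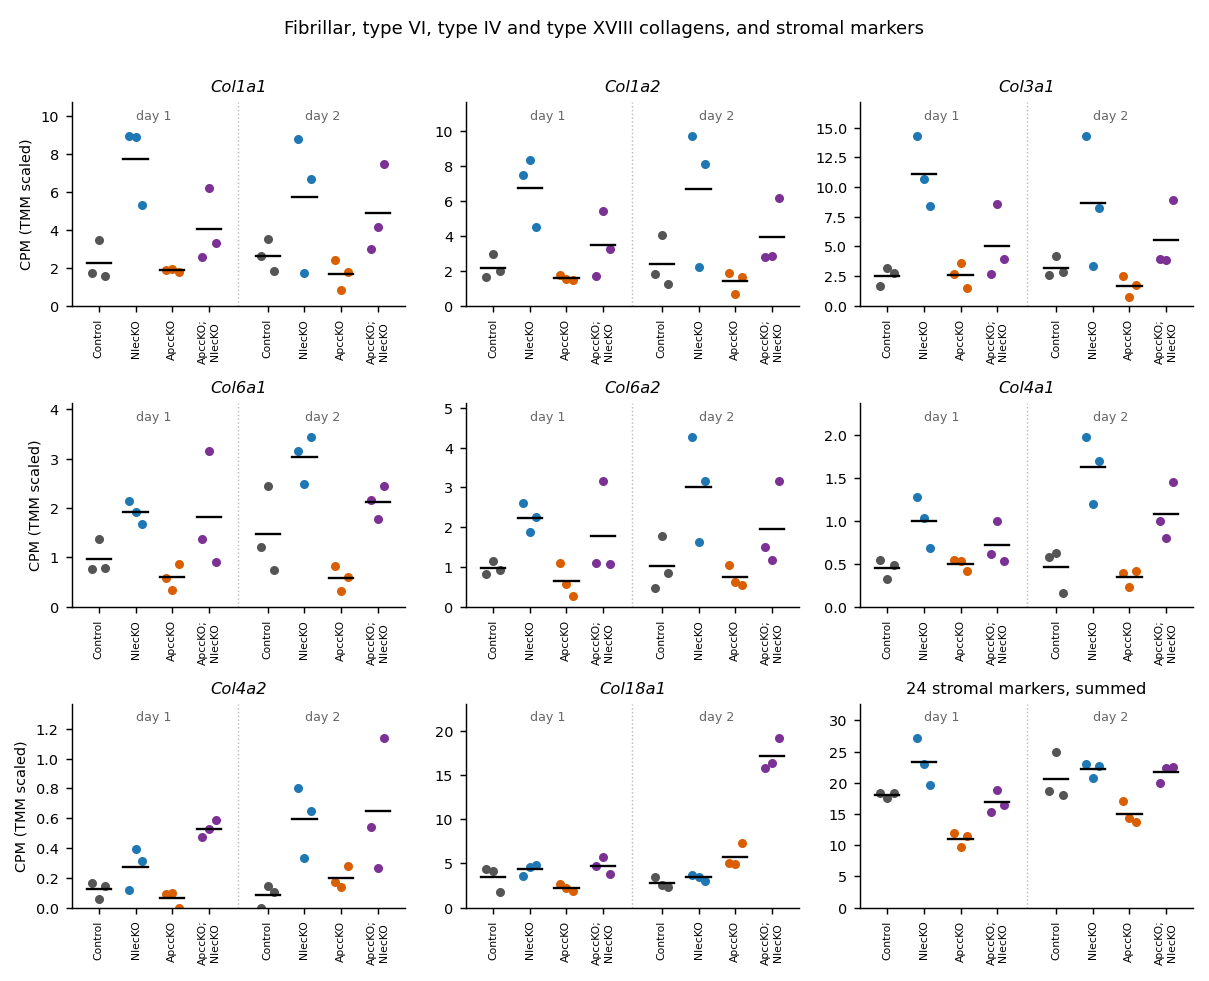
Fibrillar, type VI, type IV and type XVIII collagens and the sum of 24 stromal markers in CPM (linear axes from 0), with 1 point per library and a line at each group mean, day 1 left and day 2 right in each panel. Col1a1, Col1a2 and Col3a1, whose sum is not drawn, together reached 18.3 to 30.7 CPM in day 1 NlecKO against 5.08 to 9.57 in day 1 Control. Col18a1 stands out in the day 2 double knockout (15.8 to 19.2 CPM).

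Between d1 and d2, collagens and laminins were called in the Apc-lost genotypes, and whether the day effect differed between genotypes was not tested. From d1 to d2 edgeR called 0 of 28 collagens and 0 of 8 laminins in Control, where it called 0.163% of all genes (0.109% higher and 0.0544% lower), and 0 of each in NlecKO, where it called 0.0362% (0.0181% in each direction). At an unadjusted p under 0.05 there were 0 collagens and 1 laminin in Control, 1 collagen and 1 laminin in NlecKO, and DESeq2 called 0 in both. In ApccKO 7 collagens and 3 laminins were higher on d2 and 1 collagen lower, beside 11.3% of all genes called (5.84% higher and 5.49% lower), led by Lamb2 (log2 difference 1.73, SE 0.21, adjusted p = 6.8e-05), Lamb3 (log2 difference 0.68, SE 0.12, adjusted p = 0.0014) and Col9a3 (log2 difference 1.56, SE 0.29, adjusted p = 0.0015). Without the 3 libraries set apart, 2 of which are d1 ApccKO, 0 of these 11 calls were left, and d1 ApccKO then rests on 1 library that is taken to vary like the other groups. In the double knockout 1 collagen and 3 laminins were higher on d2, beside 6.49% of all genes called (3.46% higher and 3.04% lower), among them Col18a1 (log2 difference 1.84, SE 0.24, adjusted p = 3.1e-04), Lamb1 (log2 difference 1.15, SE 0.23, adjusted p = 0.0062) and Lamc1 (log2 difference 0.52, SE 0.15, adjusted p = 0.035). Without the 3 libraries set apart only Lamc1 lost its call among these 3 (adjusted p = 0.066).

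Of the 36 genes tested, 30 were called in at least 1 of the 8 comparisons of Nle1 or Apc loss and 6 in none: Col4a3, Col5a1, Col5a2, Col6a2, Col6a3 and Lama4. Of all genes tested 80.4% were called in at least 1, so the count does not set these genes apart. Col5a1, Col5a2 and Col6a3, minor fibril and type VI chains, had group means of 0.124 to 0.967 CPM. The remaining calls were few. Nle1 loss with Apc intact raised Col14a1, a fibril-associated chain of connective tissue (log2 difference 1.45, SE 0.47, adjusted p = 0.039), and Col27a1, a fibrillar chain (log2 difference 0.77, SE 0.25, adjusted p = 0.041), on d2, and any one of 5 and of 4 libraries ended these calls. In Apc-lost crypts on d2 it also raised Col20a1 by 0.52 and Col6a5 by 1.62. Apc loss on d2 raised Col6a4 with Nle1 present (log2 difference 1.58, SE 0.64, adjusted p = 0.04, overlapping groups) and lowered Col22a1 with Nle1 lost by 0.93 (adjusted p = 0.024), calls that any one of 4 and of 3 libraries ended. Col8a1, a short-chain collagen of vessels, stood on d1 at 0.164, 0.219 and 0.590 CPM in Control, 0.290, 0.197 and 0.0523 in NlecKO, 0.590, 0.193 and 0.154 in ApccKO and 0.427, 0.335 and 0.213 in the double knockout. On d2 Col8a1 stood at 0.233, 0.148 and 0.375 CPM in Control, 0.186, 0.166 and 0.203 in NlecKO, 0.651, 0.271 and 0.419 in ApccKO and 0.0831, 0.0536 and 0.208 in the double knockout. Its call in Apc-lost crypts on d2 (log2 difference -1.37, SE 0.47, adjusted p = 0.03) rests on levels of under 1 CPM. The 4 genes that were not tested stood at 0.622 CPM or less in every library.

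The partners of these chains were read from lists of the pathway. Of 15 basement membrane partners 13 were tested, and with Apc loss and Nle1 present 5 were higher and 1 lower on d1 and 3 and 2 on d2 (median log2 difference 0.33 and 0.16). These shares of the 13 were below the 49.7% and 58.7% of all genes called. Smoc2, a secreted calcium-binding matrix protein, rose by 1.57 (SE 0.19, adjusted p = 3.7e-06) and 1.57 (SE 0.19, adjusted p = 1.3e-06), and Tinagl1, a basement membrane glycoprotein, by 0.93 (SE 0.17, adjusted p = 1.9e-04) and 1.34 (SE 0.17, adjusted p = 1.9e-06). Nle1 loss lowered Smoc2 in Apc-lost crypts on d2 by 1.75 (SE 0.19, adjusted p = 1.9e-06) and raised Npnt (nephronectin, a ligand of integrins) in Apc-intact (log2 difference 1.71, SE 0.32, adjusted p = 0.0013) and Apc-lost crypts (log2 difference 2.05, SE 0.31, adjusted p = 4.9e-05). With Nle1 loss 3 partners were higher and 1 lower on d2 with Apc intact, and 4 and 1 with Apc lost, beside 15.6% and 34.9% of all genes called.

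Of 16 receptors 14 were tested, and Apc loss with Nle1 present called 4 higher and 5 lower on d1 and 6 and 6 on d2 (medians -0.06 and 0.23), beside 49.7% and 58.7% of all genes called. Ddr1, a collagen receptor kinase of epithelia, rose by 1.04 (SE 0.12, adjusted p = 1.3e-06) and 1.97 (SE 0.12, adjusted p = 2.2e-10), and Itga2, the integrin chain that binds collagen, by 0.88 (SE 0.10, adjusted p = 1.1e-06) and 0.87 (SE 0.10, adjusted p = 3.5e-07). With Nle1 loss 3 receptors were higher and 1 lower on d2 with Apc intact, and 6 and 1 with Apc lost, beside 15.6% and 34.9% of all genes called. Itgb4, the beta chain of the laminin-binding hemidesmosome integrin, rose with Nle1 loss in Apc-lost crypts on d1 (log2 difference 0.99, SE 0.14, adjusted p = 1.9e-04) and d2 (log2 difference 1.28, SE 0.14, adjusted p = 1.5e-06), and its d2 effect was larger there than in Apc-intact crypts by the interaction test (log2 difference 0.76, SE 0.20, adjusted p = 0.029).

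Of 30 genes of collagen synthesis and crosslinking 23 were tested, and Apc loss with Nle1 present called 8 higher and 3 lower on d1 and 10 and 4 on d2 (medians 0.33 and 0.25), shares close to the 49.7% and 58.7% of all genes called. Colgalt1, which adds galactose to collagen, rose by 0.63 (SE 0.08, adjusted p = 8.6e-06) and 0.79 (SE 0.08, adjusted p = 2.2e-07). Plod2, a lysyl hydroxylase that shapes collagen crosslinks, rose with Nle1 loss on d2 with Apc intact (log2 difference 2.42, SE 0.37, adjusted p = 3.2e-04) and with Apc lost (log2 difference 2.70, SE 0.36, adjusted p = 1.4e-05). Of 15 proteases and inhibitors 10 were tested, 4 being higher with Apc loss and Nle1 present on d1, and 6 higher and 2 lower on d2 (medians 0.36 and 1.36), where 24.7% and 29.2% of all genes were called higher and 49.7% and 58.7% in either direction. Mmp14 and Mmp15, metalloproteinases of the membrane type, rose on d2 by 2.41 (SE 0.16, adjusted p = 7.4e-10) and 1.74 (SE 0.15, adjusted p = 1.0e-08).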

How the data were processed

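RNA of jejunal crypts from 24 mice (8 groups of 3, named by the labels) was measured as 3 deposited tables. The authors deposited estimated counts and TPM per gene. Kallisto 0.43, the build mm9, DESeq2 and DESeq are named per the submitters' processing notes, with no role given, and no source used here names the annotation release. The third table, of normalised values, was not used. Library totals were 17.86 to 26.47 M (mega) counts.

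Here the estimated counts were rounded and fitted with edgeR 4.0.16 in R 4.3.3 (limma 3.58.1 loaded), and genes were filtered by group with filterByExpr (minimum count 10), leaving 16552 of 37620. The fit used TMM scaling, 1 mean per group over all 24 libraries and robust quasi-likelihood tests. A gene was called at a Benjamini-Hochberg adjusted p under 0.05, adjusted over the 16552. Log2 differences used a prior count of 2. Variation between mice came to 17.6% (biological coefficient of variation). The SE is the log2 difference divided by the root of the F statistic. CPM (TMM scaled) compares a gene across groups, and the deposited TPM compares genes. The code was tested on simulated data. Alternatives were DESeq2 1.42.0, its size factors in edgeR, no filter, the replicate number as a block, a fit to only the libraries compared, leaving out each library, and leaving out 3 libraries set apart by an earlier analysis.

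The members, lists and rules were chosen with earlier results of these data known. Values in every library are given for the most abundant gene of each role, the 5 smallest p among the calls of each knockout comparison, Lama3, Lamb3, Col4a1 and Col4a2; pathway lists name up to 2 genes per comparison. Values of 1 laminin gene, which family counts include, are not reported here. Comparisons that share libraries are not independent. Positions, exon overlaps and promoters are from GRCm38, not the mm9 of the notes. Stated intervals cover counting error only.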

Additional observations from a re-analysis of the deposited data

Results flagged for a closer look

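On day 2 edgeR's test of the interaction called 4 of the 36 genes tested, beside 5.24% of all genes. For these the effect of Nle1 loss was called as differing between Apc-lost and Apc-intact crypts. The runs without the filter or with the replicate number as a block called no collagen here. Lamb3 had an interaction of -0.86 on the log2 scale (SE 0.18, adjusted p = 0.0078): Nle1 loss took it from 23.3 to 25.3 CPM up to 37.2 to 45.2 with Apc intact, but ApccKO (72.5 to 88.0) and the double knockout (70.0 to 83.1) overlapped. Lamb2 had an interaction of -1.11 (SE 0.31, adjusted p = 0.042), with Nle1 loss lowering it by 0.67 with Apc intact and by 1.79 with Apc lost. Col18a1 had an interaction of 1.26 (SE 0.35, adjusted p = 0.042), its Nle1 effect being 0.29 with Apc intact and 1.56 with Apc lost. Col7a1 had an interaction of 1.02 (SE 0.30, adjusted p = 0.049), and the double knockout (3.38 to 4.53 CPM) lay within the levels of Control and NlecKO (3.08 to 4.93) while ApccKO (1.63 to 2.75) lay below. Leaving out single libraries ended none of the calls for Lamb3, and ended that for Lamb2 in 14, for Col18a1 in 13 and for Col7a1 in 19 of 24 cases.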

How the results depend on the processing

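Of 122 calls on single genes in 14 comparisons, none reversed under any alternative run. DESeq2 kept 113 of the 118 it gave a value for, its size factors in edgeR 121, no filter 101, the replicate block 112, a fit to only the libraries compared 90 of 107, and the fit without the 3 libraries set apart 98. Leaving out single libraries kept 76 throughout.

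Counts of genes called that moved by over 1.5 times were these. For loss of Nle1 in Apc-intact crypts on day 1 (1 collagen, 1 laminin), DESeq2 called 3 and 3, no filter 0 and 0, only the libraries compared 0 and 0, without the 3 libraries 0 and 0, and the replicate block 0 collagens. On day 2 (4 and 5) only the libraries compared gave 0 and 1. With Apc lost on day 1 (3 and 2), only the libraries compared gave 0 and 0, without the 3 libraries 0 and 0, and no filter and the replicate block 1 laminin each. For Apc loss with Nle1 present on day 1, only the libraries compared gave 5 collagens in place of 9. For the interaction on day 2 (2 and 2), size factors gave 1 collagen, no filter 0 collagens, and the replicate block 0 collagens and 1 laminin. For day 2 against day 1 in ApccKO (8 and 3), only the libraries compared gave 5 collagens, DESeq2 5 laminins, and without the 3 libraries 0 and 0. The cause was not tested, though a fit to fewer libraries has fewer degrees of freedom.

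Leaving out single libraries, collagens and laminins called ranged over 0 to 2 and 0 to 1 for loss of Nle1 in Apc-intact crypts on day 1, 1 to 7 and 2 to 5 on day 2, 1 to 4 and 0 to 2 with Apc lost on day 1, and 7 to 17 and 4 to 6 on day 2. For Apc loss they ranged over 6 to 9 and 6 to 6 with Nle1 present on day 1, 11 to 15 and 6 to 7 on day 2, 5 to 9 and 6 to 6 with Nle1 lost on day 1, and 8 to 10 and 7 to 7 on day 2. They ranged over 0 to 4 and 1 to 2 for the day 2 interaction, 3 to 8 and 2 to 5 for the days in ApccKO, 1 to 2 and 2 to 5 in the double knockout, and 0 to 0 elsewhere.

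The replicate numbers showed no general pairing of the samples: over 84 pairs of same-numbered libraries the correlation of deviations ran from -0.44 to 0.53 (median 0.04), 28 being over 0.1. These correlations cannot exclude pairing within some groups, since each deviation is from a mean of 3 libraries. Many collagens stood under 1 CPM, which at 17.86 to 26.47 M counts per library leaves few counts for a call, and p-values rest on 3 mice per group.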
